A study of Mus musculus with 12 samples.

Results

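The collagen genes are the members of 1 gene family whose products make the fibres, networks and anchors of the extracellular matrix. Within the family, membership followed the gene symbol: every row of the deposited expression table whose gene symbol reads Col, a number, the letter a and a number was a member. This gave 44 genes of 47069 listed. The table holds RNA sequencing of 12 mouse libraries at postnatal day 14, with 3 libraries in each of 4 groups. The groups were whole liver and isolated hepatocytes (the main parenchymal cells of the liver, purified from the tissue) of wild type (WT) mice and of Cdk1 Liv-/- mice. In Cdk1 Liv-/- mice the floxed alleles of Cdk1, the kinase that drives mitosis, are deleted by Cre expressed from the albumin promoter, which is active in hepatocytes and in their fetal precursors. The main collagen producers of the liver are non-parenchymal cells, which do not use this promoter. The labels call the controls wild type and do not say whether these carried floxed alleles without Cre. The study's methods state that at least 3 biological replicates were used and that the mice were male.

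Collagens are trimers of alpha chains, and each gene encodes 1 chain. Fibril-forming collagens (types I, III and V in most organs) carry the tensile load, type IV makes the sheet of basement membranes, type VI makes beaded filaments around cells, and smaller families coat fibrils or span the plasma membrane. In liver, hepatic stellate cells, portal fibroblasts and, at the surface, mesothelial cells are known producers of fibrillar collagen, and its accumulation is what histology scores as fibrosis. Collagen XVIII, the precursor of endostatin, is a heparan sulfate proteoglycan that hepatocytes themselves are known to make.

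Levels are given as FPKM (fragments per kilobase of transcript, scaled to the reads mapped), which is scaled by length and so allows genes to be compared. Differences are log2 differences of FPKM + 0.5, Cdk1 Liv-/- minus WT unless stated otherwise, with a standard error (SE), and folds are ratios of group mean FPKM. A gene was called when the adjusted p from limma was at most 0.1 and the log2 difference at least 1 in size. Of the 44 members, 33 reached the mean of 0.1 FPKM over the 12 libraries that testing required. The other 11 (Col2a1, Col4a6, Col6a4, Col9a1, Col10a1, Col11a1, Col17a1, Col19a1, Col25a1, Col26a1 and Col28a1) had means of at most 0.0883 FPKM and no library above 0.25 FPKM.

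The depth, estimated from the spacing of the lowest values, was 34.8 to 49.9 reads for 1 FPKM on 1 kb of transcript. Cdk1 itself was at 20.4 to 28.2 FPKM in the 6 WT libraries and 6.87 to 14.2 FPKM in the 6 Cdk1 Liv-/- libraries. The make-up of 2 libraries bears on the collagens. WT hepatocyte replicate 3 stood apart in markers of other cell types: its 14 stellate cell markers summed to 343 FPKM, against 166 and 109 FPKM in replicates 1 and 2 and 293 to 311 FPKM in WT whole liver. The 12 endothelial markers summed to 361 FPKM in replicate 3, 189 and 130 FPKM in replicates 1 and 2 and 189 to 259 FPKM in WT whole liver. The WT hepatocytes thus held RNA of other cells also without replicate 3. Cdk1 Liv-/- whole liver replicate 3 had Xist at 158 FPKM and 4 Y-linked genes listed at 0, although the methods state male mice, while the other 11 libraries had Xist at no more than 0.14 FPKM. Counts of called members are given with and without these libraries.

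The levels of the 33 tested members spanned more than 3 orders of magnitude. Col18a1 was highest, with a mean of 301 FPKM over the 12 libraries, followed by Col3a1 at 174, Col1a2 at 36.7, Col14a1 at 35.3, Col4a1 at 34.2, Col1a1 at 26.5 and Col4a2 at 24.2 FPKM. The order differed between groups: Col3a1 (422 FPKM) was above Col18a1 (280 FPKM) in Cdk1 Liv-/- whole liver, and Col14a1 (51.8 FPKM) above Col1a2 (36.4 FPKM) in WT whole liver. In all, 10 members had a mean of at least 10 FPKM and 20 a mean of at least 1 FPKM. In WT whole liver Col18a1 alone made up 46.1% ± 2.95 (SD, n = 3) of the summed FPKM of the 44 members.

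In whole liver, 11 of the 33 tested collagen genes were called higher in Cdk1 Liv-/- mice and 0 were called lower. The 11 were the fibril-forming chains Col1a1, Col1a2, Col3a1, Col5a2 and Col5a3, the type VI chains Col6a1, Col6a2 and Col6a3, the fibril-associated Col12a1 and Col16a1, and the multiplexin Col15a1. Of all 17386 genes tested, 4.59% were called higher and 1.00% lower. With the adjusted p alone, 18 members were higher and 3 lower, where 38.0% of all tested genes were higher and 7.53% lower. For the count of 0, limma gave 3 members lower at an unadjusted p under 0.05, and a two-sample test with q-values also called 0. The median log2 difference was 0.50 over the 33 members and 0.18 over all tested genes, and the latter went to 0.01 when libraries were scaled by median-ratio size factors, which left 7 members called higher. The share of all tested genes called with that scaling was not computed. With the library that had Xist left out, 12 members were called higher and 0 lower, beside 4.83% and 0.984% of all tested genes in that fit. Without WT replicate 2 the members called higher were 7, beside 4.54% of all tested genes.

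Col3a1 (ENSMUSG00000026043, mm10 chr1:45311538-45349706), the chain of the type III fibrils that stain as reticulin, was the most abundant fibrillar collagen. It was at 164, 159 and 200 FPKM in the WT whole livers and at 376, 565 and 325 FPKM in the Cdk1 Liv-/- whole livers. The groups did not overlap, and the mean rose 2.42-fold, a log2 difference of 1.24 (SE 0.22, adjusted p = 0.0109 from limma). The RefSeq stretch of 250 bases before its start (GRCm38.p6 chr1:45311288-45311537, plus strand) is shown because the gene carries most of the fibrillar signal, with the letters TATAAA in capitals.
Col3a1: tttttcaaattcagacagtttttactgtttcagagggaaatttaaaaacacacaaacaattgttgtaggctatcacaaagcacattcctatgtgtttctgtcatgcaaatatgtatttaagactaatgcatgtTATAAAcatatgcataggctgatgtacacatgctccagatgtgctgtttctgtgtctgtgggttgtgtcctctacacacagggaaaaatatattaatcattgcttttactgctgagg

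Col1a1 and Col1a2 encode the chains of type I collagen, the main component of scar. Col1a1 (ENSMUSG00000001506, chr11:94936224-94953042) had the largest log2 difference of the members in whole liver. Its values were 18.9, 19.1 and 26.0 FPKM in WT and 66.9, 112 and 55.2 FPKM in Cdk1 Liv-/- whole liver, so that the lowest Cdk1 Liv-/- library stood well above the highest WT library. The mean rose 3.67-fold, by 1.80 on the log2 scale (SE 0.28, adjusted p = 0.00783 from limma). Col1a2 (ENSMUSG00000029661, chr6:4504814-4541544) was at 32.8, 33.3 and 43.2 FPKM in WT and 85.2, 125 and 70.1 FPKM in Cdk1 Liv-/- whole liver. It rose 2.56-fold, by 1.32 on the log2 scale (SE 0.23, adjusted p = 0.0107). Replicate 2 was the highest of the Cdk1 Liv-/- livers for both chains.

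The type V chains, which nucleate fibrils and set their diameter, moved in the same direction by different amounts. Col5a2 (chr1:45374321-45503282), whose 3′ end lies 24614 bases from that of Col3a1 on the opposite strand, was at 5.18, 4.52 and 6.97 FPKM in WT and 13.3, 16.0 and 11.4 FPKM in Cdk1 Liv-/- whole liver. Its log2 difference was 1.22 (SE 0.18, adjusted p = 0.00714 from limma), and the groups did not overlap. Col5a3 rose from 1.61, 1.42 and 2.27 FPKM to 4.83, 6.58 and 4.83 FPKM, by 1.39 on the log2 scale (SE 0.18, adjusted p = 0.00498). Col5a1, the most abundant of the type V chains, was at 15.5, 15.3 and 18.3 FPKM in WT and 22.0, 33.2 and 20.3 FPKM in Cdk1 Liv-/- whole liver. Its difference of 0.58 (SE 0.19, adjusted p = 0.0662) passed the adjusted p and not the fold threshold. Col27a1, a fibrillar chain best known from cartilage, went from 3.70, 4.78 and 3.52 FPKM to 5.10, 5.99 and 5.29 FPKM, with a difference of 0.41 (SE 0.13, adjusted p = 0.0512). The other tested fibrillar chains, Col11a2 and Col24a1, were at 0.430 and 0.593 FPKM on average in WT and 0.690 and 0.590 FPKM in Cdk1 Liv-/- whole liver, and neither passed the test.

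All 5 tested chains of type VI collagen, the filament that links cells to the interstitial matrix, passed the adjusted p in whole liver. Col6a3 (chr1:90765923-90843971) was at 11.6, 12.8 and 13.8 FPKM in WT and 29.8, 37.0 and 27.0 FPKM in Cdk1 Liv-/- livers, a log2 difference of 1.25 (SE 0.13, adjusted p = 0.00269 from limma). Col6a1 (chr10:76708792-76726168) was at 9.90, 9.76 and 15.0 FPKM in WT and 21.4, 46.2 and 18.9 FPKM in Cdk1 Liv-/- livers, a difference of 1.2 (SE 0.37, adjusted p = 0.0510). Its neighbour on the same strand, Col6a2, was at 7.53, 6.86 and 10.1 FPKM in WT and 15.9, 40.2 and 13.9 FPKM in Cdk1 Liv-/- livers, a difference of 1.31 (SE 0.41, adjusted p = 0.0551). Replicate 2 held more than 2 times the level of either other Cdk1 Liv-/- liver for these neighbours. Without it the differences were 0.80 for Col6a1 and 0.84 for Col6a2, under the fold threshold. Both calls were also lost without WT replicate 1 and without WT replicate 2, and with no filter, with adjusted p of up to 0.146. The low-abundance chains Col6a5 and Col6a6 were at 0.54, 0.34 and 0.43 FPKM and at 0.25, 0.33 and 0.33 FPKM in WT whole liver. In the Cdk1 Liv-/- livers Col6a5 was at 1.46, 1.43 and 1.18 FPKM and Col6a6 at 0.89, 0.56 and 0.62 FPKM, with log2 differences of 0.99 (adjusted p = 0.00354) and 0.56 (adjusted p = 0.0204).

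Among the fibril-associated collagens, which decorate fibrils and do not form them, Col16a1 showed the least spread. It was at 3.86, 4.14 and 4.07 FPKM in WT and 8.66, 8.70 and 8.81 FPKM in Cdk1 Liv-/- whole liver, a log2 difference of 1.03 (SE 0.06, adjusted p = 0.000416 from limma). Col12a1, which binds type I fibrils in tissues under load, was at 1.49, 1.45 and 1.70 FPKM in WT and 3.57, 3.77 and 3.49 FPKM in Cdk1 Liv-/- livers, a difference of 1.01 (SE 0.08, adjusted p = 0.00120). Both lay just above the fold threshold of 1, and the size factor scaling and a pseudocount of 1 put both below it. The Col12a1 call was also lost without WT replicate 1, WT replicate 2 or Cdk1 Liv-/- replicate 2, and was kept in 10 of 15 alternatives against 13 of 15 for Col16a1. Col14a1, the most abundant gene of this class, was at 54.9, 46.2 and 54.3 FPKM in WT and 50.01, 53.3 and 44.9 FPKM in Cdk1 Liv-/- livers. These groups overlapped, and the difference of -0.07 had a 95% interval of -0.30 to 0.17. Col22a1 was at 0.00, 0.06 and 0.04 FPKM in WT and 0.23, 0.37 and 0.38 FPKM in Cdk1 Liv-/- livers, a log2 difference of 0.63 (SE 0.10, adjusted p = 0.00828). Col9a2, Col9a3 and Col20a1 had group means between 0.300 and 0.703 FPKM in whole liver and did not pass the test.

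The multiplexins, basement membrane collagens with heparan or chondroitin sulfate chains, parted. Col15a1 (chr4:47208161-47313167) was at 1.66, 1.79 and 2.96 FPKM in WT and 5.64, 17.6 and 4.41 FPKM in Cdk1 Liv-/- whole liver, a log2 difference of 1.66 (SE 0.51, adjusted p = 0.0523 from limma). Replicate 2 again stood apart, and without it the difference was 1.09 (adjusted p = 0.0339). The call was lost without WT replicate 1 (adjusted p = 0.148), without WT replicate 2 (adjusted p = 0.135) and with no filter (adjusted p = 0.119). Col18a1 (chr10:77052178-77166548) was at 370, 359 and 363 FPKM in WT and 305, 266 and 270 FPKM in Cdk1 Liv-/- livers. The highest Cdk1 Liv-/- liver was under the lowest WT liver, and the difference of -0.38 (SE 0.07, adjusted p = 0.0120) passed the adjusted p and not the fold threshold.

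**Figure D1:**
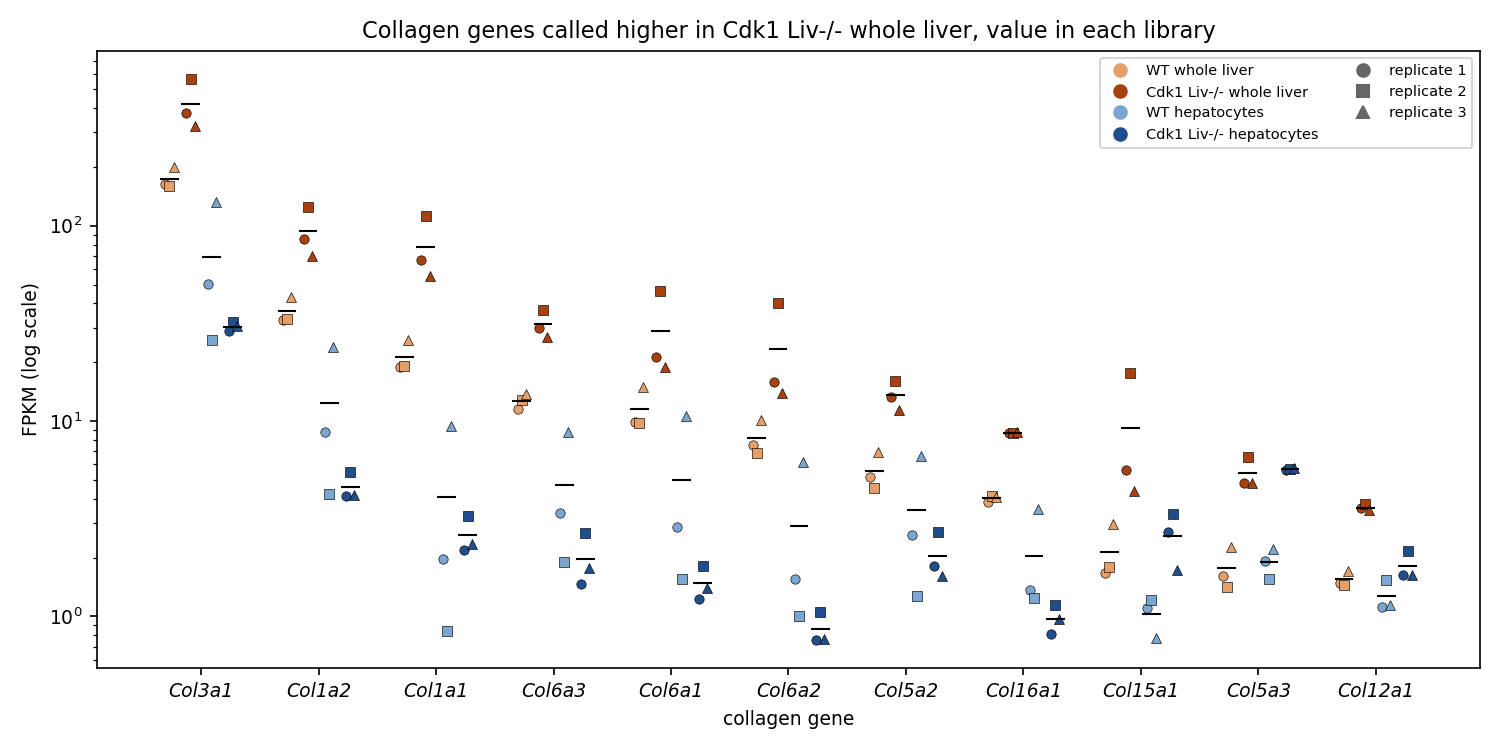
FPKM (log axis) of the 11 collagen genes called higher in Cdk1 Liv-/- whole liver, in each of the 12 libraries, with black lines at group means and marker shapes for replicates. The 3 Cdk1 Liv-/- livers lie above the 3 WT livers for all 11 genes, which largely follows from choosing the genes by the difference between these same libraries. Replicate 2 is highest for most of them, and WT hepatocyte replicate 3 (light blue triangles) lies above the other WT hepatocytes for 9 of them.

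The type IV chains of the basement membrane are encoded in head-to-head pairs, and the pairs went different ways. Col4a1 and Col4a2, the chains of nearly every basement membrane, lie on chromosome 8 with annotated transcripts that overlap by 22 bases at their starts. Col4a1 was at 34.1, 31.3 and 42.05 FPKM in WT and 51.3, 67.5 and 41.98 FPKM in Cdk1 Liv-/- whole liver, a log2 difference of 0.56 (SE 0.20, adjusted p = 0.0737 from limma). Col4a2 was at 26.3, 24.2 and 29.5 FPKM in WT and 36.6, 48.4 and 30.4 FPKM in Cdk1 Liv-/- livers, a difference of 0.50 (SE 0.18, adjusted p = 0.0756). Both passed the adjusted p and neither the fold threshold. The ratio of Col4a1 to Col4a2 was 1.34 ± 0.0737 in WT and 1.39 ± 0.00953 (SD, n = 3) in Cdk1 Liv-/- livers. Col4a5, on the X chromosome, had means of 4.88 and 5.03 FPKM and a difference of 0.04, with a 95% interval of -0.28 to 0.35.

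Col4a3 and Col4a4, chains of the specialised basement membrane of kidney and lung, lie head to head on chromosome 1 with 71 bases between their starts. Both were lower in Cdk1 Liv-/- whole liver. Col4a3 (ENSMUSG00000079465, chr1:82586921-82722059) was at 1.33, 1.23 and 1.09 FPKM in WT and 0.64, 0.32 and 0.46 FPKM in Cdk1 Liv-/- livers, a log2 difference of -0.83 (SE 0.14, adjusted p = 0.00949 from limma). Col4a4 (ENSMUSG00000067158, chr1:82448423-82586849) was at 0.64, 0.61 and 0.60 FPKM in WT and 0.38, 0.28 and 0.33 FPKM in Cdk1 Liv-/- livers, a difference of -0.43 (SE 0.08, adjusted p = 0.0110). Neither pair of groups overlapped. With Col18a1, they were the 3 members lower at the adjusted p alone. The RefSeq sequence between their starts (GRCm38.p6 chr1:82586850-82586920, minus strand, reading toward Col4a4) is shown because it precedes both genes, which moved together in each preparation.
Col4a4 to Col4a3: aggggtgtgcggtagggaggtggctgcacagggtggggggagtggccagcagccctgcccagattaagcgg

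The remaining tested members did not pass the test in whole liver. The transmembrane Col13a1 was at 2.42, 4.25 and 2.81 FPKM in WT and 3.59, 1.80 and 3.14 FPKM in Cdk1 Liv-/- livers, and Col23a1 had a mean of 0.173 FPKM in both genotypes. Col7a1, of the anchoring fibrils of skin, was at 0.27, 0.50 and 0.26 FPKM in WT and 1.02, 0.43 and 0.66 FPKM in Cdk1 Liv-/- livers, and its log2 difference of 0.50 had an adjusted p of 0.117 from limma. Of the network collagens, Col8a1 had means of 0.177 and 0.0933 FPKM in WT and Cdk1 Liv-/- livers and Col8a2 was at 0.26, 0.27 and 0.16 FPKM in WT and 0.36, 0.33 and 0.26 FPKM in Cdk1 Liv-/- livers.

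In isolated hepatocytes fewer collagen genes were called. Of the 33 tested members 2 were called higher in Cdk1 Liv-/- hepatocytes, Col5a3 and Col22a1, and 3 were called lower, Col14a1, Col27a1 and Col13a1. Over all tested genes 4.20% were called higher and 2.17% lower. With the adjusted p alone, 5 members were higher and 3 lower, beside 12.1% and 6.61% of all tested genes. Without WT hepatocyte replicate 3, which had the highest marker sums of other cell types, the called members were 2 higher (Col5a3, Col22a1) and 2 lower (Col27a1, Col13a1), beside 4.06% and 1.52% of all tested genes in that fit. The median log2 difference was -0.22 over the 33 members and 0.05 over all tested genes.

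Col5a3 (ENSMUSG00000004098, chr9:20770050-20815067), the type V chain of narrow distribution, was at 1.93, 1.56 and 2.21 FPKM in WT hepatocytes and 5.61, 5.68 and 5.72 FPKM in Cdk1 Liv-/- hepatocytes. The groups did not overlap, the mean rose 2.98-fold, and the log2 difference was 1.37 (SE 0.15, adjusted p = 0.00465 from limma). In whole liver the same gene had risen 3.06-fold. Its level in isolated hepatocytes was 108% of that in whole liver in WT and 105% in Cdk1 Liv-/- mice. The stretch of 250 bases before its start (RefSeq, GRCm38.p6 chr9:20815068-20815317, minus strand) is shown for comparison with Col3a1, with the letters CCAAT and CCGCCC in capitals.
Col5a3: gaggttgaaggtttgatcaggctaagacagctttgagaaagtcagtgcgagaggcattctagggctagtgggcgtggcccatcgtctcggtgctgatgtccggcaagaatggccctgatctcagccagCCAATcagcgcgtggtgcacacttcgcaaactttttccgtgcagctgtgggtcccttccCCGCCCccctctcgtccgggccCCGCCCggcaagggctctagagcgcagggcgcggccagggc

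Motifs were searched by letters on both strands of the RefSeq windows from 250 bases before to 50 bases after a start: the TATA box (TATAAA), the CCAAT box (CCAAT) and the GC box (GGGCGG, which reads CCGCCC on the other strand). Windows were found for 35 of the 44 members, with 38 windows in all. The GC box letters stood in 23 of these 38 windows (60.5%), beside 35.7% of 32851 windows of all genes. The CCAAT letters stood in 34.2% of the members' windows and 37.4% of all, and the TATA box letters in 13.2% and 13.6%. In the stretches printed above, the TATA box letters of Col3a1 begin 117 bases before its start. The CCAAT letters of Col5a3 begin 122 bases before its start, and its GC box letters 63 and 41 bases before it. The stretch between Col4a4 and Col4a3 holds none of these motifs.

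Col22a1 (ENSMUSG00000079022, chr15:71795795-72034227), a collagen of tissue junctions, was at or near 0 in WT hepatocytes. It was listed at 0 in replicates 1 and 2 and at 0.04 FPKM in replicate 3 of WT hepatocytes, and at 1.36, 0.54 and 0.84 FPKM in the Cdk1 Liv-/- hepatocytes. At the estimated depth these were about 0, 0 and 16.7 reads in WT against 486, 188 and 258 reads. The log2 difference was 1.42 (SE 0.22, adjusted p = 0.0130 from limma), a scale on which the added 0.5 compresses the change of so low a gene. With 1 added in its place the difference was 0.89 and the gene was not called. Its WT means were 0.0133 FPKM in hepatocytes and 0.0333 FPKM in whole liver. It reached the filter only through the Cdk1 Liv-/- groups, where it is higher, so the filter favoured this direction.

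Other members were higher at the adjusted p and below the fold threshold. Col15a1 was at 1.11, 1.21 and 0.78 FPKM in WT and 2.72, 3.34 and 1.73 FPKM in Cdk1 Liv-/- hepatocytes, a log2 difference of 0.99 (SE 0.25, adjusted p = 0.0553 from limma). Col4a3 was at 1.56, 1.11 and 0.74 FPKM in WT and 2.17, 2.98 and 2.64 FPKM in Cdk1 Liv-/- hepatocytes, a difference of 0.94 (SE 0.23, adjusted p = 0.0520). Col4a4 was at 0.39, 0.27 and 0.20 FPKM in WT and 0.82, 0.86 and 0.55 FPKM in Cdk1 Liv-/- hepatocytes, a difference of 0.66 (SE 0.16, adjusted p = 0.0506). For these 3 genes every Cdk1 Liv-/- hepatocyte library stood above every WT hepatocyte library, which their choice by the test on the same libraries makes likely. Without WT hepatocyte replicate 3 the differences were 0.86 for Col15a1 (adjusted p = 0.131), 0.76 for Col4a3 (adjusted p = 0.101) and 0.58 for Col4a4 (adjusted p = 0.119), and none of the 3 passed in that smaller fit.

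The genes called lower were of several classes. Col14a1 (chr15:55307750-55520803) was at 28.9, 13.0 and 53.1 FPKM in WT and 7.96, 9.69 and 6.93 FPKM in Cdk1 Liv-/- hepatocytes, a log2 difference of -1.69 (SE 0.48, adjusted p = 0.0764 from limma). Without WT replicate 3, its highest library, the difference was -1.21 with an adjusted p of 0.117, and the call was lost. It was also lost without WT replicate 1 and without each of the Cdk1 Liv-/- replicates, and the adjusted p ranged from 0.00826 to 0.196 over the alternatives. Col27a1 (chr4:63214004-63334991) was at 4.28, 6.30 and 4.55 FPKM in WT and 1.10, 2.03 and 1.28 FPKM in Cdk1 Liv-/- hepatocytes. Its difference of -1.50 (SE 0.24, adjusted p = 0.0143) was -1.56 without WT replicate 3. Col13a1 (chr10:61838236-61979108), a transmembrane collagen of cell contacts, was at 2.69, 2.58 and 4.35 FPKM in WT and 1.37, 0.72 and 0.70 FPKM in Cdk1 Liv-/- hepatocytes, a difference of -1.37 (SE 0.27, adjusted p = 0.0283), and -1.16 without WT replicate 3. The Col13a1 call was lost when limma was fitted with a replicate block (adjusted p = 0.101).

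These decreases stood beside lower stellate cell and endothelial markers in the Cdk1 Liv-/- hepatocyte preparations. The 14 stellate cell markers summed to 109 to 343 FPKM in WT and 59.97 to 89.2 FPKM in Cdk1 Liv-/- hepatocytes, with 5 called lower and 1 more lower at the adjusted p alone. Of the 12 endothelial markers 10 were called lower, and their sum was 130 to 361 FPKM in WT and 57.6 to 89.9 FPKM in Cdk1 Liv-/- hepatocytes. Of the 8 Kupffer cell markers 1 was called lower (median log2 difference -1.09), and of the 8 erythroid markers 2 were (median -1.47). Cholangiocyte markers went the other way, with 5 of 7 tested higher at the adjusted p. The 10 portal fibroblast markers had a median log2 difference of -0.01, and 1 was higher at the adjusted p. Their sum was 6.67 to 16.9 FPKM in WT and 17.1 to 32.2 FPKM in Cdk1 Liv-/- hepatocytes. Cdk1 Liv-/- means were higher for Eln (15.4 against 6.40 FPKM), Entpd2 (5.15 against 2.35 FPKM), Fbln1 and Pi16. They were lower for Thy1, Mfap4, Fbln2, Gli1, Cd34 and Dpt. No stellate cell or endothelial marker was at 0 in all 3 libraries of a group. Their part in the collagen differences was not tested. In bulk RNA, fewer cells of a type and less RNA per cell cannot be told apart.

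The fibrillar chains Col1a1, Col1a2 and Col3a1 and the type VI chains Col6a1, Col6a2 and Col6a3 did not pass the test between hepatocyte genotypes, and replicate 3 was the highest WT library for each. Col3a1 was at 50.5, 25.9 and 132 FPKM in WT and 28.8, 32.1 and 30.5 FPKM in Cdk1 Liv-/- hepatocytes. Col1a1 was at 1.98, 0.84 and 9.40 FPKM in WT and 2.20, 3.27 and 2.35 FPKM in Cdk1 Liv-/- hepatocytes, and its log2 difference of -0.06 had a 95% interval of -1.76 to 1.64. Without WT replicate 3 the Col1a1 difference was 0.75 (adjusted p = 0.232 from limma). Col1a2 was at 8.78, 4.22 and 24.0 FPKM in WT and 4.16, 5.47 and 4.20 FPKM in Cdk1 Liv-/- hepatocytes. Col5a1 was at 6.56, 3.59 and 17.6 FPKM in WT and 2.35, 2.48 and 2.26 FPKM in Cdk1 Liv-/- hepatocytes, a difference of -1.49 with an adjusted p of 0.12 from limma, and -0.91 without WT replicate 3. Col5a2 was at 2.60, 1.28 and 6.64 FPKM in WT and 1.82, 2.71 and 1.62 FPKM in Cdk1 Liv-/- hepatocytes, a difference of -0.44 that was 0.09 without WT replicate 3. Among the type VI chains Col6a3 was at 3.40, 1.90 and 8.79 FPKM in WT and 1.47, 2.69 and 1.78 FPKM in Cdk1 Liv-/- hepatocytes. Col6a1 was at 2.88, 1.55 and 10.6 FPKM in WT and 1.23, 1.81 and 1.40 FPKM in Cdk1 Liv-/- hepatocytes, and Col6a2 at 1.55, 1.01 and 6.20 FPKM against 0.76, 1.06 and 0.77 FPKM. The genotypes overlapped for all 3 type VI chains.

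The other abundant members did not pass the test either. Col18a1 was at 274, 342 and 322 FPKM in WT and 270, 231 and 245 FPKM in Cdk1 Liv-/- hepatocytes, a log2 difference of -0.33 (SE 0.11, adjusted p = 0.12 from limma) close in size to that of whole liver. Col4a5 was at 5.05, 5.62 and 4.08 FPKM in WT and 3.77, 5.23 and 3.56 FPKM in Cdk1 Liv-/- hepatocytes. Col4a1 was at 20.7, 15.0 and 44.8 FPKM in WT and 18.4, 20.4 and 23.1 FPKM in Cdk1 Liv-/- hepatocytes, where Col4a2 had means of 18.8 and 13.0 FPKM. The groups overlapped for Col4a1, Col4a2 and Col4a5. Col12a1 was at 1.12, 1.53 and 1.15 FPKM against 1.64, 2.17 and 1.64 FPKM. Col16a1 had values of 1.36, 1.25 and 3.53 FPKM in WT and 0.81, 1.14 and 0.97 FPKM in Cdk1 Liv-/- hepatocytes. Of the members below 1 FPKM, Col7a1 was at 0.25, 0.09 and 0.18 FPKM in WT and 0.44, 0.17 and 0.25 FPKM in Cdk1 Liv-/- hepatocytes. Col9a2, Col8a1 and Col11a2 had higher means in Cdk1 Liv-/- hepatocytes (0.143, 0.107 and 0.437 FPKM) than in WT (0.0433, 0.0433 and 0.307 FPKM). Lower means were those of Col20a1, Col24a1, Col9a3 and Col23a1 (0.267, 0.0800, 0.147 and 0.0700 FPKM against 0.580, 0.350, 0.237 and 0.130 FPKM), while Col8a2 was at 0.01, 0.02 and 0.03 FPKM in WT and 0.01, 0.02 and 0.00 FPKM in Cdk1 Liv-/- hepatocytes. None of these 9 passed the test.

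**Figure D2:**
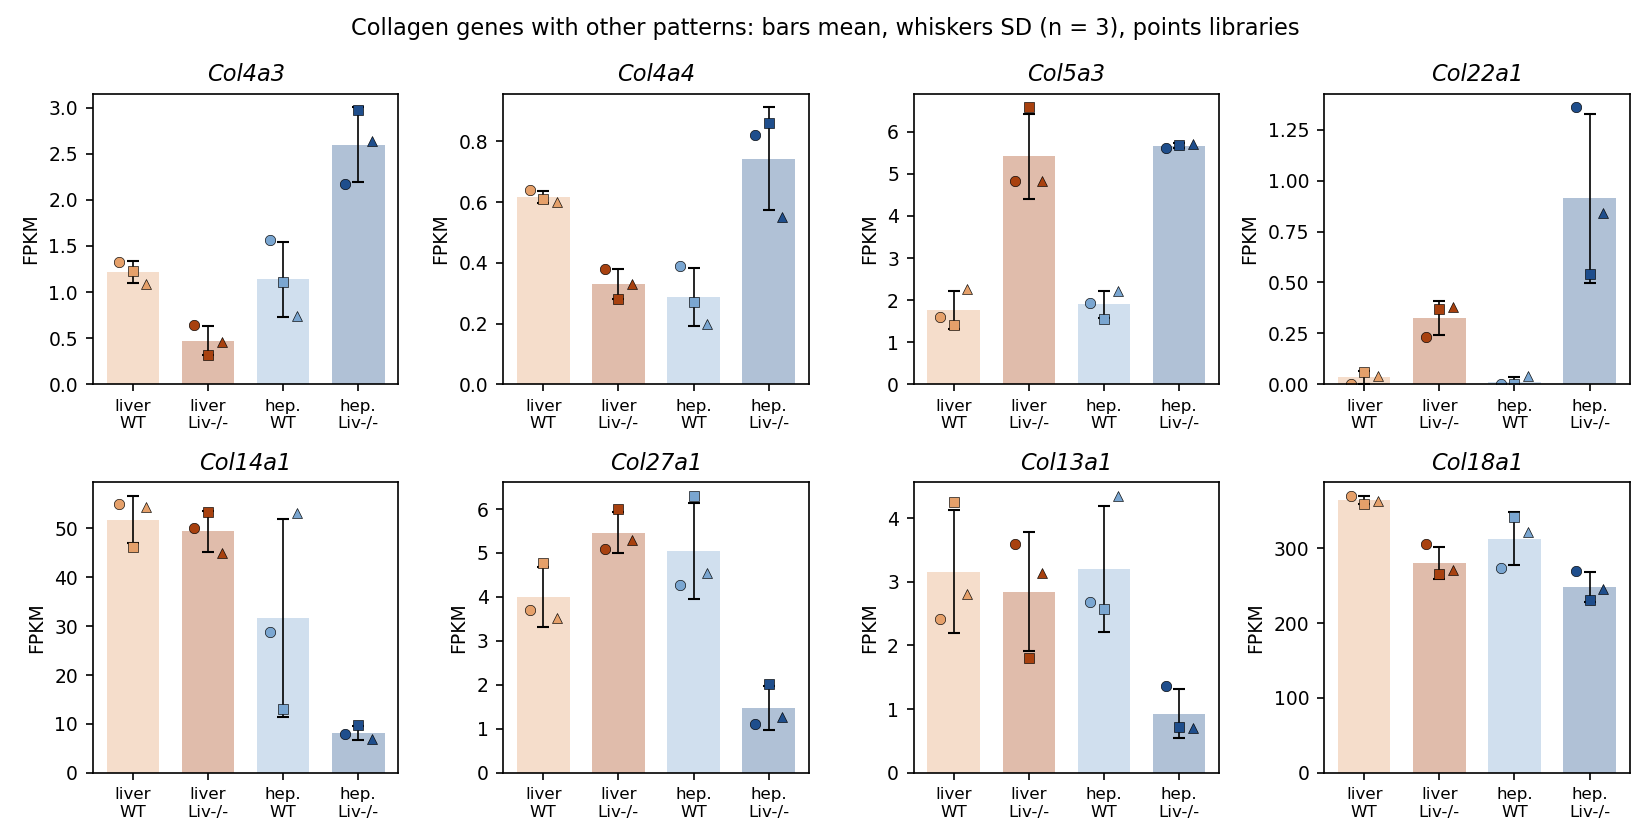
FPKM of 8 collagen genes in the 4 groups, with bars for the mean, whiskers for the SD (n = 3) and points for libraries. Col4a3 and Col4a4 go down in whole liver and up in hepatocytes of Cdk1 Liv-/- mice, Col5a3 rises to 5.41 and 5.67 FPKM on average in the 2 preparations, Col22a1 is highest in Cdk1 Liv-/- hepatocytes, and Col14a1, Col27a1 and Col13a1 are lowest there.

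The difference between the 2 genotype effects was tested directly, as the genotype difference in hepatocytes minus that in whole liver. It passed an adjusted p of 0.1 for 13 of the 33 members: 10 were below 0 and 3 above. Over all tested genes 7.49% passed below and 2.35% above, and the median of all tested genes was -0.11. Markers of non-parenchymal cells passed below 0 in the same test: 9 of 12 endothelial (median -1.72), 3 of 8 Kupffer cell (median -1.42), 3 of 5 tested mesothelial, 3 of 10 portal fibroblast, 2 of 14 stellate cell and 1 of 7 myofibroblast markers, with 0 above 0. Of the 7 tested cholangiocyte (median -0.31) and 8 erythroid markers (median -1.4) 0 passed. Of the 10 hepatocyte markers 3 passed above 0 and 0 below. Their part in the collagen terms was not tested. The 10 were Col1a2 (-2.33), Col6a2 (-2.33), Col6a3 (-2.12), Col3a1 (-2.10), Col5a1 (-2.07), Col27a1 (-1.92), Col16a1 (-1.71), Col6a5 (-0.96), Col6a6 (-0.76) and Col12a1 (-0.62). Their adjusted p from limma ranged from 0.0162 for Col27a1 to 0.0948 for Col6a2. In hepatocytes Col6a5 was at 0.03, 0.01 and 0.02 FPKM in WT and 0.07, 0.01 and 0.01 FPKM in Cdk1 Liv-/- mice, and Col6a6 at 0.11, 0.15 and 0.12 FPKM and at 0.04, 0.07 and 0.03 FPKM. In WT hepatocytes Col6a5 was at 4.58% and Col6a6 at 41.8% of the whole liver level, in a range that the added 0.5 compresses.

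Above 0 were Col4a3 (1.77, SE 0.27, adjusted p = 0.0221 from limma), Col4a4 (1.09, SE 0.18, adjusted p = 0.0311) and Col22a1 (0.79, SE 0.25, adjusted p = 0.0998). The head-to-head pair thus had opposite signs in the preparations, lower in Cdk1 Liv-/- whole liver and higher in Cdk1 Liv-/- hepatocytes. The Col22a1 interaction passed in 3 of 18 alternatives and was lost without each library except Cdk1 Liv-/- hepatocyte replicate 2, with an adjusted p of up to 0.185. Col4a3 and Col4a4 passed the interaction in every alternative analysis, as did Col27a1 and Col6a5. For Col5a3 the interaction was -0.02, with a 95% interval of -0.53 to 0.50. Col1a1, at -1.86 (SE 0.81), did not pass (adjusted p = 0.192). The number below 0 was sensitive to single libraries: it was 8 without WT hepatocyte replicate 3, 4 without Cdk1 Liv-/- whole liver replicate 3, 2 without WT whole liver replicate 1 and 17 without WT hepatocyte replicate 2. The share of all tested genes below 0 moved with it, to 3.99%, 3.01%, 0.247% and 12.8% in the same fits. The number above 0 was 2 without WT hepatocyte replicate 3 and 2 without Cdk1 Liv-/- whole liver replicate 3.

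**Figure D3:**
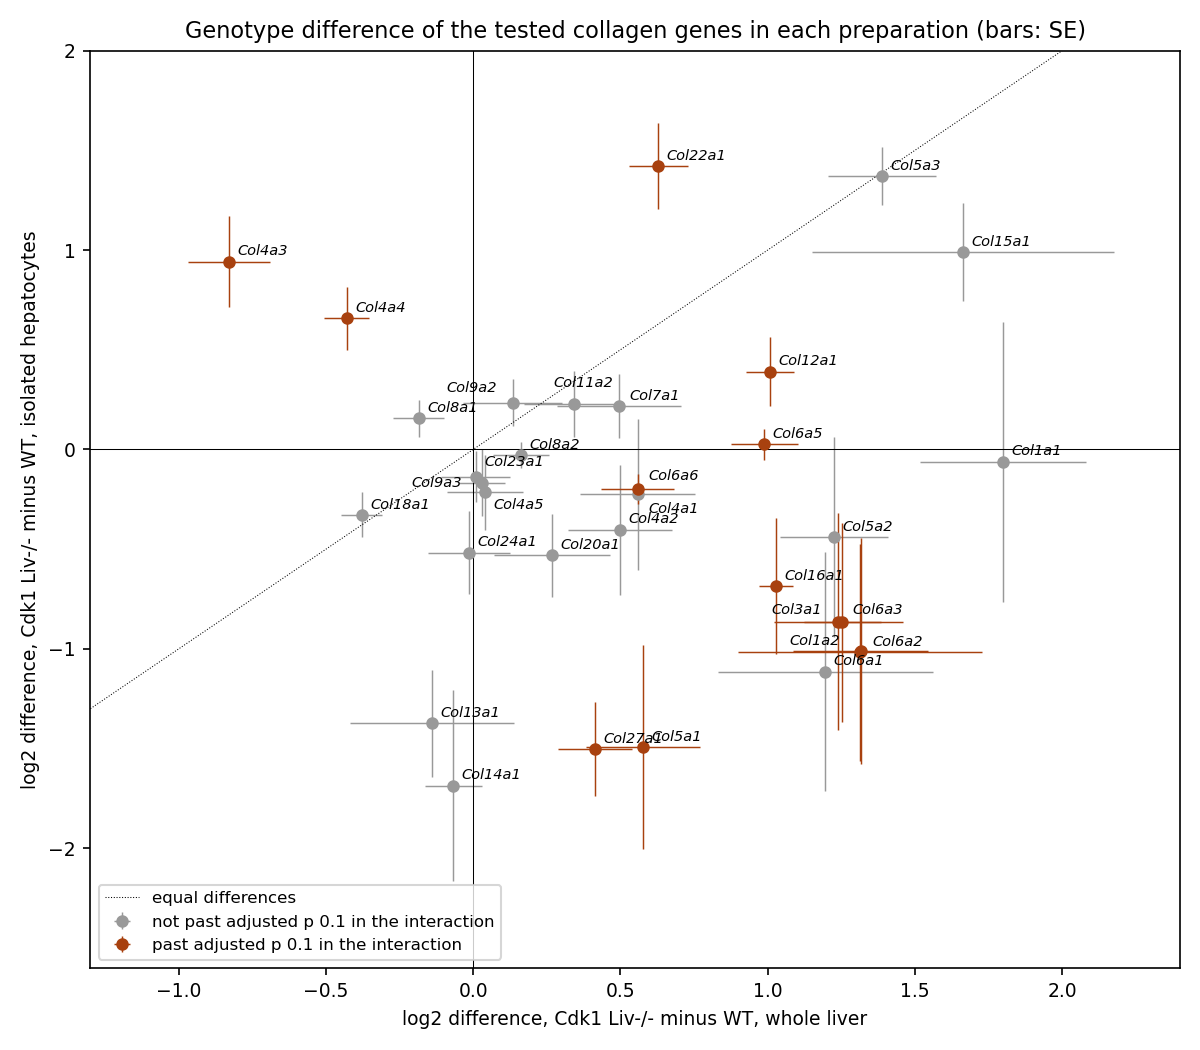
Log2 difference between Cdk1 Liv-/- and WT (bars: SE) in whole liver (horizontal) and isolated hepatocytes (vertical) for the 33 tested collagen genes, with the 13 past an adjusted p of 0.1 in the interaction in red. Col5a3 lies on the dotted line of equal differences, the fibrillar and type VI chains lie to its lower right, and Col4a3 and Col4a4 lie at the upper left.

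The comparison of isolated hepatocytes with whole liver asks how much of each collagen's signal the hepatocyte preparation retained. In WT, 0 of the 33 members were called in either direction by limma, beside 0.0403% of all tested genes called higher and 0.426% lower. At an unadjusted p under 0.05, 14 members were lower in hepatocytes and 0 higher, and 3 (Col6a5, Col8a2 and Col9a2) were lower at the adjusted p alone. Col6a5 and Col8a2 had means of 0.02 FPKM in WT hepatocytes and of 0.03 and 0.01 FPKM in Cdk1 Liv-/- hepatocytes. They reached the filter only through whole liver, where they are higher, so the filter favoured this direction in both genotypes. This comparison turned on WT hepatocyte replicate 3, without which 10 members were called lower, beside 2.71% of all tested genes in that fit. These were Col1a1, Col1a2, Col3a1, Col5a1, Col5a2, Col6a1, Col6a2, Col6a3, Col14a1 and Col16a1, with log2 differences from -3.57 for Col1a1 to -1.33 for Col16a1. In that replicate Col3a1 reached 132 FPKM and Col1a1 9.40 FPKM, above the other WT hepatocytes and below every WT whole liver. With all libraries, 0 of 12 endothelial (median -0.003), 0 of 14 stellate cell (median -0.67) and 0 of 8 Kupffer cell markers (median -0.51) were called between the WT preparations. Of the 10 portal fibroblast markers 5 were called lower (median -1.42).

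In Cdk1 Liv-/- mice 17 members were called lower in hepatocytes than in whole liver and 1, Col4a3, higher, beside 9.46% and 1.51% of all tested genes. In the same comparison 12 of 12 endothelial, 8 of 8 Kupffer cell, 12 of 14 stellate cell, 8 of 10 portal fibroblast, 5 of 7 myofibroblast and 4 of 5 tested mesothelial markers were called lower. The largest differences were those of Col1a1 (-4.61, SE 0.28, adjusted p = 0.000474 from limma), Col1a2 (-4.17), Col6a2 (-3.97), Col6a1 (-3.78), Col3a1 (-3.73) and Col6a3 (-3.70). Col5a1 (-3.13), Col16a1 (-2.65), Col14a1 (-2.53) and Col5a2 (-2.48) followed. Smaller were Col6a5 (-1.81), Col27a1 (-1.62), Col4a2 (-1.50), Col15a1 (-1.43), Col4a1 (-1.33), Col13a1 (-1.21) and Col6a6 (-1.11). The Col15a1 call (adjusted p = 0.0709) was kept in 7 of 14 alternatives and was lost without Cdk1 Liv-/- whole liver replicate 1 or 2, at -0.86 without replicate 2, and without each Cdk1 Liv-/- hepatocyte replicate. Col4a3 was 1.67 higher in hepatocytes (SE 0.17, adjusted p = 0.00146). Without Cdk1 Liv-/- whole liver replicate 3, the library with Xist, 17 members were called lower and 1 higher, beside 9.86% and 1.32% of all tested genes in that fit.

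Expressed as a share, the hepatocytes held 3.33% of the whole liver level of Col1a1, 4.93% of Col1a2 and 7.22% of Col3a1 in Cdk1 Liv-/- mice. In WT mice these shares were 19.1%, 33.8% and 39.9% with all 3 hepatocyte libraries and 6.61%, 17.8% and 21.9% without replicate 3. Col18a1 was retained at 85.9% in WT and 88.6% in Cdk1 Liv-/- mice, and Col4a5 at 101% and 83.2%. The Col4a3 share went from 93.4% in WT to 549% in Cdk1 Liv-/- mice and the Col4a4 share from 46.5% to 225%. Col27a1 went the other way, from 126% to 26.9%, and Col13a1 from 101% to 32.7%.

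**Figure D4:**
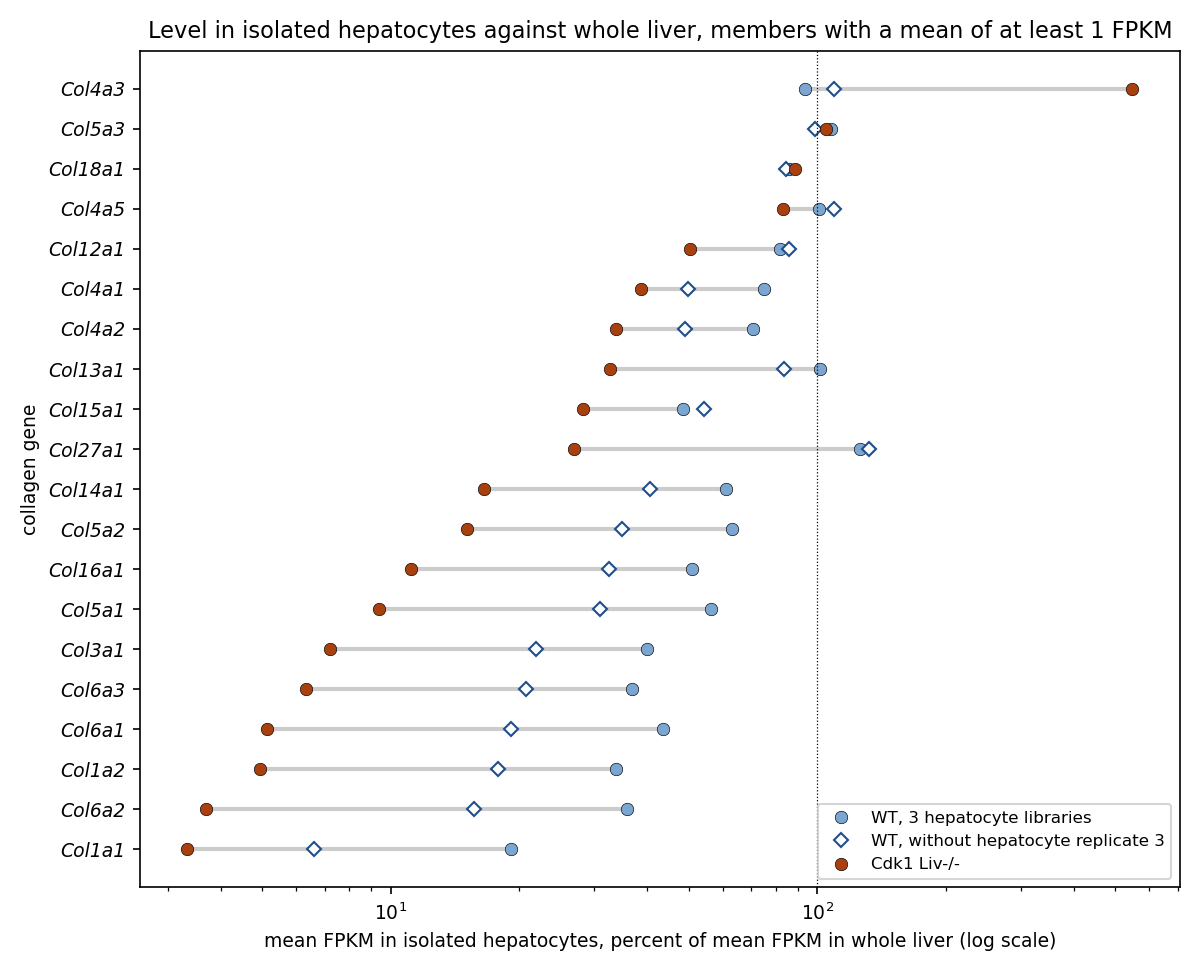
Mean FPKM in isolated hepatocytes as a percent of that in whole liver (log axis) for the 20 collagen genes with a mean of at least 1 FPKM, in WT with (blue circles) and without (open diamonds) hepatocyte replicate 3 and in Cdk1 Liv-/- mice (red). Col18a1 and Col5a3 lie near 100% in both genotypes, Col4a3 is at 549% in Cdk1 Liv-/- mice, and Col1a1, at 3.33%, is lowest.

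The make-up of the collagen signal was described by sums and shares. The 44 members summed to 776, 751 and 850 FPKM in WT and 1119, 1466 and 972 FPKM in Cdk1 Liv-/- whole liver. Without Col18a1 the sums were 406, 392 and 487 FPKM and 813, 1200.25 and 702 FPKM. Col18a1 was 46.1% ± 2.95 of the total in WT and 24.4% ± 5.46 (SD, n = 3) in Cdk1 Liv-/- livers. Of the sum without Col18a1, Col3a1 took 40.6% ± 0.296 in WT and 46.5% ± 0.473 in Cdk1 Liv-/- livers, Col1a1 took 4.95% ± 0.341 and 8.49% ± 0.787, and Col14a1 took 12.2% ± 1.23 and 5.66% ± 1.07. Col4a1 took 8.34% ± 0.317 and 5.97% ± 0.341. In hepatocytes Col18a1 made up 62.0% ± 15.0 of the total in WT, 69.6% without WT replicate 3, and 68.9% ± 3.16 in Cdk1 Liv-/- mice. In whole liver the genotypes did not overlap for any share in this paragraph, with an exact permutation p of 0.10 and an adjusted p of 0.175 each. The smallest p that 3 libraries against 3 allow is 0.10. The adjusted p could reach 0.10 only if all 28 tests stood at that minimum, and 16 did, so this test cannot decide on these shares.

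Type I collagen is normally built from a fixed ratio of its chains, and the ratio of their transcripts was compared. Col1a1 over Col1a2 was 0.577, 0.572 and 0.601 in WT and 0.785, 0.899 and 0.788 in Cdk1 Liv-/- whole liver. In hepatocytes it was 0.226, 0.199 and 0.392 in WT and 0.529, 0.598 and 0.560 in Cdk1 Liv-/- mice. In both preparations the genotypes did not overlap, and the exact permutation test gave p = 0.10, the smallest that 3 libraries against 3 allow, with an adjusted p of 0.175 over the 28 ratios, sums and shares tested. Col3a1 over Col1a1 was 8.23 ± 0.496 in WT and 5.51 ± 0.441 (SD, n = 3) in Cdk1 Liv-/- whole liver. Col4a3 over Col4a4 was 2.08, 2.02 and 1.82 in WT and 1.68, 1.14 and 1.39 in Cdk1 Liv-/- whole liver, and 3.94 ± 0.213 and 3.64 ± 1.09 (SD, n = 3) in WT and Cdk1 Liv-/- hepatocytes.

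The genes that make, assemble and remove collagen were examined as 7 lists with 64 genes, of which 59 were tested. In Cdk1 Liv-/- whole liver 8 of them were called higher and 0 lower by limma, and 36 more were higher and 2 lower at the adjusted p alone. At an unadjusted p under 0.05, 44 were higher and 2 lower. In hepatocytes 4 were called higher and 1 lower, with 3 more higher and 2 lower at the adjusted p alone. The shares of all tested genes called are those given above for each preparation.

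Of the 15 tested genes for hydroxylation and glycosylation of the nascent chains, 2 were called higher in Cdk1 Liv-/- whole liver, Plod2 (1.15, adjusted p = 0.0244 from limma), a lysyl hydroxylase, and P3h4 (1.09, adjusted p = 0.00846), a partner of prolyl 3-hydroxylase. A further 9 were higher and 2 lower at the adjusted p alone, and the smallest difference was that of the galactosyltransferase gene Colgalt2 (-0.28). Of the 8 genes for folding and export 0 were called by limma and 6 were higher at the adjusted p alone, also 6 at an unadjusted p under 0.05, led by the chaperone genes Fkbp10 (0.97) and Fkbp7 (0.70), with Ctage5 at 0.03. Of the 7 tested procollagen processing genes 0 were called and 4 were higher at the adjusted p alone, also 4 at an unadjusted p under 0.05, with Adamts14 (0.95), a procollagen N-proteinase, and Mep1a (0.89), a meprin subunit, largest and Bmp1 (-0.01) smallest.

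Among the 5 crosslinking enzymes Loxl1 was called higher (1.08, adjusted p = 0.00714 from limma) and 3 more were higher at the adjusted p alone, with Lox at 0.93 and Loxl4 at 0.10. Of the 8 fibril-binding proteins, Lum, a proteoglycan that spaces fibrils, was called higher and 6 more were higher at the adjusted p alone. Lum was at 14.2, 12.3 and 13.6 FPKM in WT and 47.5, 63.3 and 51.6 FPKM in Cdk1 Liv-/- whole liver, a log2 difference of 1.97 (adjusted p = 0.000519). Next was Fmod, fibromodulin (1.00), and smallest was Fn1, fibronectin (0.07).

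Of the 7 tested collagen receptors Ddr1 (1.93, adjusted p = 0.000167 from limma), a receptor tyrosine kinase activated by fibrillar and basement membrane collagen, and Mrc2 (1.24), which takes up collagen for degradation, were called higher, 4 more were higher at the adjusted p alone, and Itga1 was at -0.02. Ddr1 was at 1.77, 1.71 and 1.56 FPKM in WT and 7.47, 8.24 and 7.78 FPKM in Cdk1 Liv-/- whole liver, and it was also called higher in Cdk1 Liv-/- hepatocytes (1.69, adjusted p = 0.0263). Of the 9 genes for degradation and its control, Timp1 and Ctsk (1.12), a collagenolytic cathepsin, were called higher, 4 more were higher at the adjusted p alone, and Timp3 was at 0.12. Timp1, an inhibitor of matrix metalloproteinases, went from 0.35, 0.30 and 0.85 FPKM to 19.5, 30.1 and 21.6 FPKM, by 4.62 on the log2 scale (adjusted p = 0.000416).

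In hepatocytes the pathway genes called higher were Timp1 (4.09, adjusted p = 0.00110 from limma), Ddr1, Mep1a (1.27) and the prolyl 4-hydroxylase subunit P4ha2 (1.08). Timp1 was at 0.03, 0.10 and 0.14 FPKM in WT and 6.83, 9.88 and 12.8 FPKM in Cdk1 Liv-/- hepatocytes. Mmp2, gelatinase A, was called lower (-2.07, adjusted p = 0.0379), at 5.83, 2.43 and 9.77 FPKM in WT and 0.92, 1.03 and 0.68 FPKM in Cdk1 Liv-/- hepatocytes. It was highest in WT replicate 3. Of the crosslinking and fibril-binding lists 0 genes passed the adjusted p in hepatocytes by limma, with 1 crosslinking gene lower and 0 fibril-binding genes in either direction at an unadjusted p under 0.05.

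Markers of collagen-producing cells were read beside the collagens in whole liver. Of the 10 portal fibroblast markers 3 were called higher and 3 more were higher at the adjusted p alone, with Entpd2 (1.58) and Dpt (1.40) largest and Eln (0.04) smallest. Their sum was 65.1 to 81.2 FPKM in WT and 91.0 to 114 FPKM in Cdk1 Liv-/- livers. Of the 5 tested mesothelial markers 3 were called higher and 2 more were higher at the adjusted p alone, with Msln (1.67) and Wt1 (1.19) largest and Lrrn4 (0.61) smallest. The sum of the 6 listed was 0.71 to 2.00 FPKM in WT and 4.86 to 7.27 FPKM in Cdk1 Liv-/- livers. In hepatocytes the same 6 summed to 0.13 to 0.76 FPKM in WT and 0.51 to 0.85 FPKM in Cdk1 Liv-/- mice, with 1 of them, Krt14, listed at 0 in all 6 libraries.

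Of the 14 stellate cell markers 0 were called by limma, 3 were higher and 2 lower at the adjusted p alone, and 4 were higher and 3 lower at an unadjusted p under 0.05. Pdgfrb (0.79) and Rgs5 (0.71) were largest and Angptl6 (-0.87) smallest. The stellate sum was 293 to 311 FPKM in WT and 258 to 337 FPKM in Cdk1 Liv-/- livers, so the genotypes overlapped, while the collagens other than Col18a1 went from 392 to 487 FPKM up to 702 to 1200.25 FPKM. Of the 7 myofibroblast markers 0 were called by limma, and 3 were higher at the adjusted p alone and at an unadjusted p under 0.05, with Actg2 (0.73) and Postn (0.69) largest and Myl9 (-0.07) smallest. Their sum was 83.7 to 124 FPKM in WT and 123 to 170 FPKM in Cdk1 Liv-/- livers. Replicate 2 of the Cdk1 Liv-/- livers, highest in 10 of the 11 called collagens, had the lowest stellate (258 FPKM), portal fibroblast (91.0 FPKM) and cholangiocyte (152 FPKM) sums of its group. Among the portal fibroblast markers Eln was at 58.8, 34.4 and 53.6 FPKM in replicates 1, 2 and 3. Thy1 and Fbln2 were also lowest in replicate 2. Entpd2, Fbln1, Gli1, Cd34 and Pi16 were highest in replicate 2, and Mfap4 and Dpt lay between. The same library had the highest myofibroblast (170 FPKM), mesothelial (7.27 FPKM), Kupffer cell (604 FPKM) and endothelial (299 FPKM) sums. The part of cell numbers in the collagen differences was not tested.

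Markers of other cell types were read in the same way. In whole liver, 38.0% of all tested genes were higher and 7.53% lower at the adjusted p alone. Of the 7 tested cholangiocyte markers 4 were called higher in whole liver, led by Spp1 (1.96) and Tspan8 (1.71), and 2 in hepatocytes. The cholangiocyte sum was 57.8 to 75.7 FPKM in WT and 152 to 287 FPKM in Cdk1 Liv-/- livers, and 24.0 to 38.8 FPKM and 74.0 to 133 FPKM in WT and Cdk1 Liv-/- hepatocytes. Of the 8 Kupffer cell markers and the 12 endothelial markers, 0 were called in whole liver by limma and 3 of each were higher at the adjusted p alone and at an unadjusted p under 0.05, with Cd5l (0.92), Marco (0.69) and Clec4f (0.13), and Vwf (0.61), Fcgr2b (0.47) and Lyve1 (-0.45), at the ends. The Kupffer cell sum was 307 to 359 FPKM in WT and 421 to 604 FPKM in Cdk1 Liv-/- livers. Of the 10 hepatocyte markers 0 were called in whole liver by limma, and 1 was higher and 4 lower at the adjusted p alone and at an unadjusted p under 0.05, with Cyp3a11 (0.46), Fgb (0.16) and Cps1 (-0.95) at the ends. Of the 8 erythroid markers Klf1 was called lower (-1.38) in whole liver and 2 more were lower at the adjusted p alone, with Slc4a1 (0.46) largest.

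**Figure D5:**
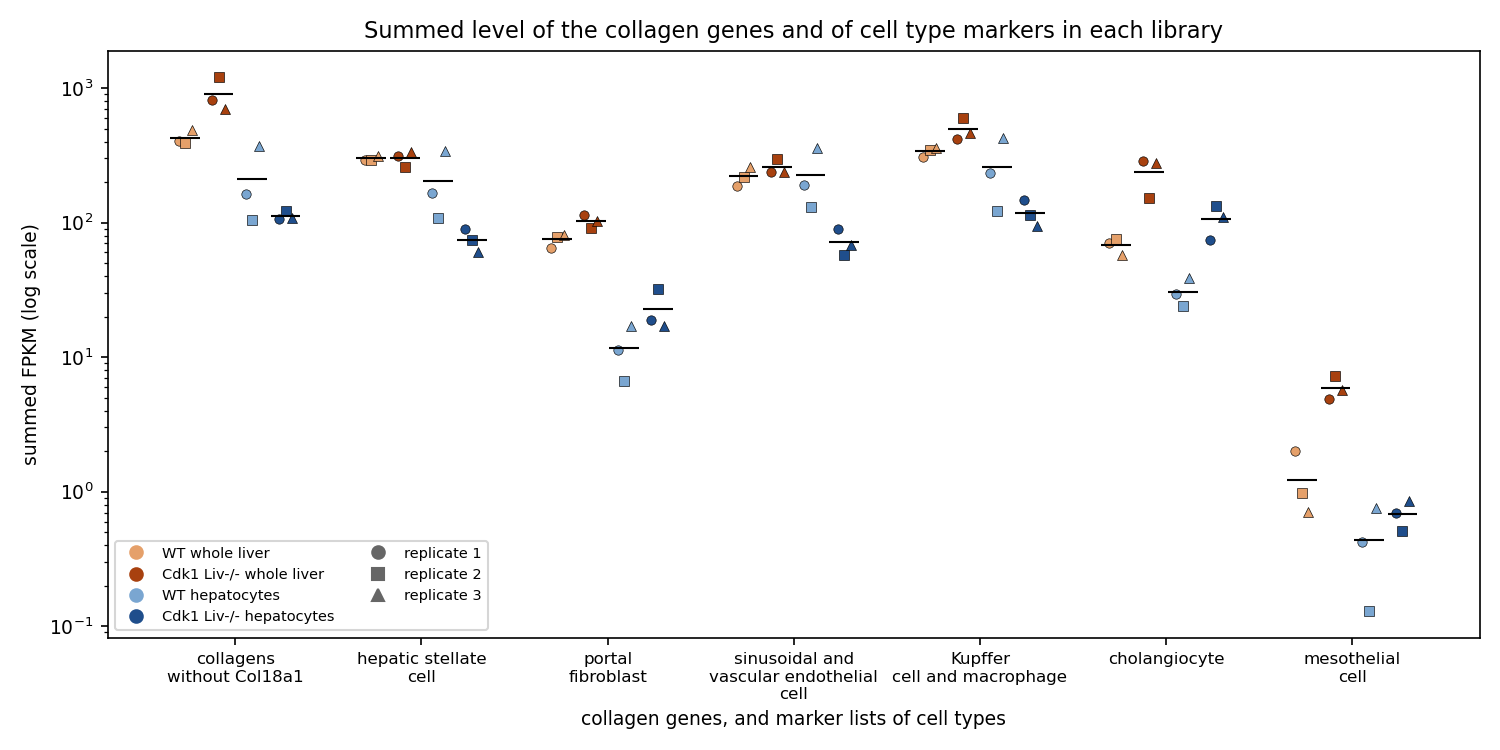
Summed FPKM (log axis) of the collagen genes other than Col18a1 and of 6 marker lists in each library, by group, with marker shapes for replicates. In whole liver the collagen, portal fibroblast, Kupffer cell, cholangiocyte and mesothelial sums separate the genotypes. The endothelial sum and the stellate cell sum (258 to 337 FPKM in Cdk1 Liv-/- livers), carried mainly by Ecm1, Reln and Colec11, overlap. WT hepatocyte replicate 3 is highest of the WT hepatocytes in the collagen, stellate cell, endothelial and Kupffer cell sums.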

How the data were processed

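Polyadenylated RNA of 12 mouse libraries was sequenced by the authors as stranded single-end reads. Per the labels and methods, reads were aligned with STAR to mm10 and quantified with RSEM 1.2.31, and the authors deposited 1 table of FPKM values with 2 decimals, with no normalization between libraries. The annotation release is not given in the sources used here. Groups came from the sample titles.

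FPKM + 0.5 was log2 transformed and fitted with limma 3.58.1 in R 4.3.3 (moderated test with a trend, two-sided) over 17386 genes with a mean of at least 0.1 FPKM. P-values were adjusted by Benjamini-Hochberg over all of them. Each pairwise comparison used its 6 libraries and the interaction all 12. Checks on simulated data were run first. Ratios and shares were tested by exact permutation. Positions, where given, are from an mm10 annotation, and sequences from RefSeq (GRCm38.p6).

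The members, as a family, and the lists were chosen with earlier results of these data known; which genes belong to the family followed from their symbols. Every library's value is given for members called between genotypes or past the interaction, for the highest of each structural class and for Col1a1 and Col1a2. Of the other lists, the largest 2 and smallest 1 in whole liver are named, together with called pathway genes and some markers behind a sum. Some marker genes that this rule names are not reported here. Alternatives were the pseudocount, the filter, scaling, the adjusted p alone, 1 fit of all libraries, a replicate block, a two-sample test with q-values and leaving out each library. Depth was estimated from the steps of low values and covers counting error only.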

Additional observations from a re-analysis of the deposited data

Results flagged for a closer look

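For 13 collagen genes the genotype effect differed between hepatocytes and whole liver by the interaction term of limma. Over all tested genes 7.49% passed this test below 0 and 2.35% above 0, and the median term of all tested genes was -0.11. Marker genes passed below 0 in the same test, among them 9 of 12 endothelial (median -1.72) and 3 of 8 Kupffer cell markers (median -1.42), so the sign was not particular to the collagens. Of the 7 tested cholangiocyte and 8 erythroid markers 0 passed, and 3 of 10 hepatocyte markers passed above 0. The term is the log2 difference in hepatocytes minus that in whole liver. It was -2.33 for Col6a2, -2.33 for Col1a2, -2.12 for Col6a3, -2.10 for Col3a1, -2.07 for Col5a1, -1.92 for Col27a1, -1.71 for Col16a1, -0.964 for Col6a5, -0.756 for Col6a6 and -0.617 for Col12a1. It was 0.792 for Col22a1, 1.09 for Col4a4 and 1.77 for Col4a3. Of these, Col27a1, Col6a5, Col4a3 and Col4a4 passed in each alternative that was run. Without WT hepatocyte replicate 3 the terms of Col6a2 (-1.69, adjusted p = 0.121), Col12a1 (-0.66, adjusted p = 0.110) and Col22a1 (0.83, adjusted p = 0.146) no longer passed. The other 10 passed without it, at -1.70 for Col1a2, -1.59 for Col6a3, -1.49 for Col3a1, -1.49 for Col5a1, -1.33 for Col16a1, -1.97 for Col27a1, -0.96 for Col6a5, -0.76 for Col6a6, 1.59 for Col4a3 and 1.01 for Col4a4. Over the 18 alternatives Col16a1 and Col6a6 passed in 17, Col6a3 in 9, Col1a2 in 7, Col5a1 in 6, Col3a1 in 5, Col6a2 and Col12a1 in 4 and Col22a1 in 3. With the replicate block Col1a2, Col3a1, Col5a1, Col6a2, Col6a3, Col12a1 and Col22a1 were lost.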

How the results depend on the processing

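No collagen gene past a threshold changed sign in any alternative. Size factors changed the sign of the whole liver differences of Col4a5, Col9a3 and Col23a1, which had not passed. For the members called in a comparison or past the interaction, and the 3 past the adjusted p between WT preparations, 627 pairs of a gene and an alternative kept direction and side of the threshold, 135 kept the direction and lost the call, and 6 gained a call (Col6a5, Col8a2 and Col9a2 between WT preparations). This tally leaves out the other members, whose gains show in the counts of calls. Col1a1, Col1a2, Col3a1, Col5a2, Col5a3 and Col6a3 were called in whole liver in all 15 alternatives, and Col5a3 and Col27a1 in hepatocytes. Col14a1 was called in hepatocytes in 7 of 15. The number called higher in whole liver (11) was 7 with median-ratio size factors, 18 with the adjusted p alone and 7 to 12 without 1 library (7 without WT replicate 2). The number lower (0) was 1 with a pseudocount of 0.1, 3 with the adjusted p alone and 0 without any 1 library. In hepatocytes the number higher (2) was 5 with a pseudocount of 0.1, 1 with a pseudocount of 1, 5 with the adjusted p alone and 2 to 3 without 1 library, and the number lower (3) was 2 to 5 (5 without WT replicate 2). For hepatocytes against whole liver the number lower in WT (0) was 3 with a pseudocount of 0.1, 3 with the adjusted p alone, 3 with 1 fit of all 12 libraries and 0 to 10 without 1 library (10 without hepatocyte replicate 3). In Cdk1 Liv-/- mice the number higher (1) was 2 with a pseudocount of 0.1 and 3 with the adjusted p alone, and the number lower (17) was 15 to 17 without 1 library. The interaction number below 0 (10) was 6 with no filter and 2 to 17 without 1 library. It was 4 without WT whole liver replicates 2 or 3 or Cdk1 Liv-/- whole liver replicates 2 or 3, and 5 without Cdk1 Liv-/- whole liver replicate 1, WT hepatocyte replicate 1 or Cdk1 Liv-/- hepatocyte replicates 1 or 3. Without 1 library the share of all tested genes called ran from 4.11% to 5.34% higher in whole liver and from 0.966% to 3.41% lower in hepatocytes. In the interaction the share below 0 ran from 0.247% to 12.8%. For the pseudocount, filter, scaling and 1 fit of all libraries this share was not computed, so those moves cannot be read as particular to the collagens. The cause of these moves was not tested.

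Correlations of same-numbered libraries ran from -0.317 to 0.239, so the replicate numbers were not taken as pairing the samples. With a replicate block the number lower in hepatocytes was 1, the interaction number below 0 was 4 and that above 0 was 2, and whole liver had 9 higher. The share of all tested genes called with the block was not computed, so these counts cannot be read as particular to the collagens.

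Groups of 3 bound the precision, values have 2 decimals, and the added 0.5 compresses changes below 1 FPKM. Depth was estimated and not counted. Whether strand was used in quantification, which bears on the overlapping starts of Col4a1 and Col4a2, is not stated in the sources used here.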
